A study of Mus musculus with 10 samples.

Results

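Genes listed for the white fat cell were followed in aortic arch RNA. It came from ApoE-/-,MyD88-/- mice, called double-null here, and from ApoE-/- mice, called apoE-null. The set is a list of 10 genes, matched by symbol to the array's annotation: Adipoq, Retn, Cfd, Plin1, Cidec, Fabp4, Pparg, Lipe, Scd1 and Car3. Of these, 8 have a probe among 11131 genes on the array, and all 8 had enough values to be tested among 4299 genes. Cfd and Plin1 had no annotated probe and were not analysed here.

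Every mouse in both groups lacks apolipoprotein E, which clears lipoproteins from blood, so that plasma cholesterol is high and plaques form. MyD88, missing from the double-null mice alone, is the adaptor of most Toll-like receptors and of the interleukin-1 receptor family. RNA of 1 mouse of each genotype shared a two-colour array, and the 10 arrays are 5 mouse pairs run with the dyes both ways round. Both mice were female in pair 1 and both male in pairs 2, 3 and 4. In pair 5 the double-null mouse was male and its apoE-null partner female, so that sex and genotype cannot be told apart there. A high fat diet for 8 weeks is stated for 8 arrays, and the other 2 hold mice that also appear on those 8. The labels give neither strain nor age. The labels state that the outer connective tissue was removed from the vessel in cold preservative before the arch was homogenised.

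White adipocytes store triglyceride in a single large droplet, release it as fatty acids when hormones call for it, and secrete hormones such as adiponectin. The aorta lies in perivascular fat, which around the thoracic vessel of rodents is brown-like and also holds thermogenic adipocytes. PPARγ, encoded by Pparg, is the nuclear receptor that drives adipocyte differentiation and switches on many genes of lipid storage, several of the other members among them.

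All values are log2 ratios, double-null over apoE-null, within a mouse pair: a value of 1 is a doubling, and a pair value is the mean of its pair of arrays. The files hold ratios and no levels, so a ratio shows how unequal 2 arches were and not how much fat transcript either held. It also cannot tell fewer fat cells from less RNA per fat cell. The deleted gene checked the labels: Myd88 was lower in the double-null mouse of every pair, with a mean of -0.90 ± 0.22 (SD, n = 5 pairs, limma adjusted p = 0.0269). The arrays carried 4581 to 7057 values for 13872 probes, with 8 or 9 of the 9 member probes measured on each, and no intensities were analysed. As the mouse pair is the replicate, the number of pairs, 5, limits the precision of the genotype comparison. The mouse numbers of pair 1 are swapped between genotypes from one array to the other. Genotypes were taken as labelled, and both arrays of that pair then read the same way for every member.

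Promoter sequence was available for 7 of the 10 genes, and 3 stretches are shown because they belong to the master regulator Pparg, to the adiponectin gene, whose ratio ranged widely over the mouse pairs, and to the resistin gene, whose ratio did not. Each is the 250 bases before an annotated start (RefSeq, GRCm38.p6), read 5′ to 3′ on the gene's strand, with motif matches in capitals. Adipoq is shown at chr16:23146286-23146535 (plus strand), Pparg at its downstream start at chr6:115421816-115422065 (plus strand), and Retn at chr8:3655520-3655769 (plus strand).
Adipoq: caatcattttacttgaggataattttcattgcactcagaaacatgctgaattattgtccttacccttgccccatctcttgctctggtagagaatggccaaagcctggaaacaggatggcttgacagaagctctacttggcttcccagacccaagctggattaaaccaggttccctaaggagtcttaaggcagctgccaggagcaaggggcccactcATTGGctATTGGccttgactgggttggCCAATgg
Pparg: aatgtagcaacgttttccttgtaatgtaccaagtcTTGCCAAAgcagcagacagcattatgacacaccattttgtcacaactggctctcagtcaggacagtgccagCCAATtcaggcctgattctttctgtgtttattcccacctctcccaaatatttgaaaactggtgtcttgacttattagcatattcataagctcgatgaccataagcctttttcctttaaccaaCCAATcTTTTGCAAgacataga
Retn: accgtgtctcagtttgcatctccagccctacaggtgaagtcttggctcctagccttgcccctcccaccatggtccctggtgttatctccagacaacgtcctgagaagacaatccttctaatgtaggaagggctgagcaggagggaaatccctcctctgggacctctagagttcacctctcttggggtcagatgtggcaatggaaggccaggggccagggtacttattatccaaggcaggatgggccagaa
The letters searched on both strands were TTGCNNAA (a loose C/EBP motif), CCAAT (the CCAAT box) and TATAAA (the TATA box). Also searched were TCACNCCAC (a sterol response element) and the DR1 direct repeat bound by PPARγ with its partner RXR. Adipoq holds 3 CCAAT boxes, whose first bases lie 34, 27 and 7 bases before the start. The downstream Pparg start has C/EBP matches at 215 and 16 bases and CCAAT boxes at 144 and 22 bases before it, and the Retn stretch holds no match; the matches shown do not overlap. A CCAAT box occurs in 33.9% of 32851 mouse promoters of the same length and a C/EBP match in 9.56%, against 3 of 11 starts of these 7 genes for each, and the TATA box in 12.4%, against 1 of 11, another Pparg start. No stretch of these 7 genes held the direct repeat, present in 0.338% of all, or the sterol element, present in 1.05%. Neither start of Lipe, whose ratio spanned 2.31 over the pairs, held a match either. A match is a run of letters and shows no binding, and a link between motifs and the ratios was not tested.

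Over the 5 mouse pairs no member passed the test between genotypes, against 0.814% of 4299 genes. All 7 members that could be tested differed from pair to pair, against 30.0% of 3202 genes. Transcripts of Adipoq, Cidec, Lipe, Fabp4, Scd1, Pparg and Car3 were 3.26 to 5.49 times as abundant in the double-null mouse as in the apoE-null mouse of pair 1, and 1.47 to 3.05 times in pair 4. In pair 2 the members lay on both sides of 0, and in pairs 3 and 5 most lay below it. The median over members was 2.19 in pair 1, 0.04 in pair 2, -0.51 in pair 3, 1.05 in pair 4 and -0.39 in pair 5. Above 0 were 8 of 8 members in pair 1, 4 of 8 in pair 2, 1 of 7 in pair 3, 8 of 8 in pair 4 and 2 of 8 in pair 5. Those of pair 4 include Retn, which was near 0 at 0.06. Over all genes the median lay between -0.08 in pair 1 and -0.003 in pair 3.

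**Figure D1:**
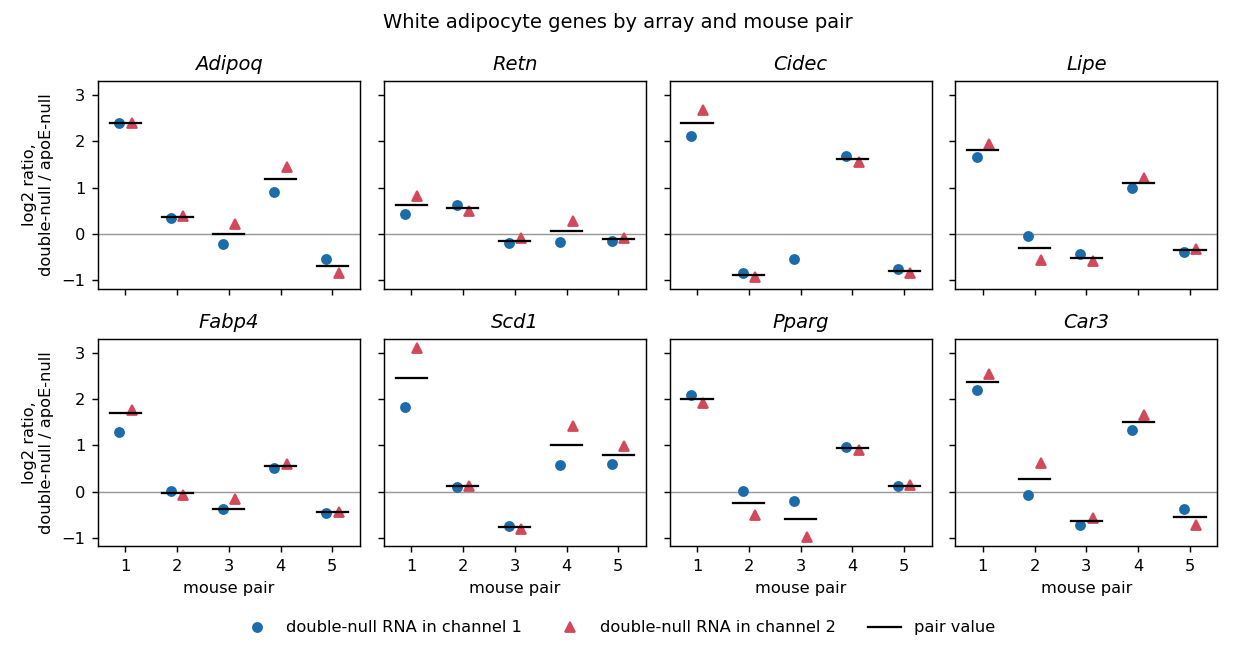
Log2 ratio, double-null over apoE-null (y axis), of the 8 measured white adipocyte genes in mouse pairs 1 to 5 (x axis). Circles are arrays with double-null RNA in channel 1, triangles arrays with it in channel 2, and bars the pair values; for Fabp4, with a probe blank on some arrays, the bar can lie off the middle of the symbols. Every array of pairs 1 and 4 lies above 0 for the 7 genes other than Retn, whose arrays all lie between -0.21 and 0.82.

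The secreted members behaved unlike each other. Adipoq encodes adiponectin, the insulin-sensitising hormone made by fat cells. Its ratios on the channel 1 and channel 2 arrays were 2.40 and 2.40 in pair 1, 0.34 and 0.39 in pair 2, -0.21 and 0.21 in pair 3, 0.91 and 1.45 in pair 4, and -0.54 and -0.84 in pair 5. The double-null mouse was thus high in pairs 1 and 4 and low in pair 5, and partner arrays differed by at most 0.54 whereas the pairs spanned 3.09. Adipoq was 5.27-fold higher in the double-null mouse of pair 1 (adjusted p = 1.15e-06 against 0 in the array-level limma fit), 2.26-fold higher in pair 4 (adjusted p = 0.000501), and lower in pair 5 (-0.69, adjusted p = 0.0187). These p-values set 2 mice against each other with the error of repeated hybridisation only.

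Retn encodes resistin, an adipocyte hormone of rodents that opposes insulin. Its ratios were 0.44 and 0.82 in pair 1, 0.62 and 0.50 in pair 2, -0.21 and -0.08 in pair 3, -0.17 and 0.29 in pair 4, and -0.16 and -0.08 in pair 5. Retn was higher in the double-null mice of pairs 1 and 2 (adjusted p = 0.0209 and 0.0375) and did not pass in the other 3. Pair 1 was thus the highest for both hormones, and the contrast of pairs 2 and 4 did not pass for either (adjusted p = 0.199 for Retn and 0.0513 for Adipoq). On the same arrays Retn lay 1.58 to 1.96 below Adipoq in pair 1 and 1.08 to 1.16 below it in pair 4, but 0.38 to 0.76 above it in pair 5.

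Among droplet proteins and lipases, Cidec and Lipe were high in pairs 1 and 4. Cidec, a protein that fuses small droplets into a large one, had ratios of 2.12 and 2.67 in pair 1, -0.85 and -0.93 in pair 2, -0.54 on the measured array of pair 3, 1.68 and 1.54 in pair 4, and -0.76 and -0.85 in pair 5. Cidec was thus 5.25-fold higher in the double-null mouse of pair 1 and 3.05-fold higher in that of pair 4. Its ratios were below 0 on all 5 measured arrays of the other pairs. With a blank in pair 3, Cidec was left out of the test among all pairs. Lipe, hormone-sensitive lipase, had 1.66 and 1.94 in pair 1, -0.05 and -0.57 in pair 2, -0.43 and -0.60 in pair 3, 0.98 and 1.20 in pair 4, and -0.39 and -0.33 in pair 5. Lipe was higher in the double-null mice of pair 1 (3.48-fold, adjusted p = 1.02e-05) and of pair 4 (2.13-fold, adjusted p = 0.000813), and its values in pairs 2, 3 and 5, all below 0, did not pass.

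Fabp4, the abundant fatty acid carrier of the adipocyte, was read by 2 probes. The first gave 1.29 and 2.11 in pair 1, -0.16 and -0.11 in pair 2, -0.38 and -0.38 in pair 3, 0.43 and 0.90 in pair 4, and -0.51 on the measured array of pair 5. The second was blank on an array each of pairs 1 and 3 and gave 1.40 on the other array of pair 1, 0.18 and -0.03 in pair 2, 0.07 on that of pair 3, 0.57 and 0.30 in pair 4, and -0.42 and -0.44 in pair 5. Both probes put pairs 1 and 4 highest and pair 5 lowest. Averaged, Fabp4 was higher in the double-null mice of pair 1 (1.52 in the array-level fit, adjusted p = 2.49e-05) and pair 4 (0.55, adjusted p = 0.0366).

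Pparg itself moved between pairs. Its ratios were 2.10 and 1.92 in pair 1, 0.01 and -0.50 in pair 2, -0.20 and -0.98 in pair 3, 0.96 and 0.90 in pair 4, and 0.12 and 0.13 in pair 5. The regulator was therefore high in the same 2 pairs as adiponectin and was lower in the double-null mouse of pair 3 (-0.59, adjusted p = 0.0398), the pair in which its partner arrays lay farthest apart. In pair 5 Pparg did not pass against 0 (adjusted p = 0.714), where Adipoq was lower.

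Scd1, stearoyl-CoA desaturase, makes monounsaturated fatty acids and is a target of the lipogenic factors SREBP-1c and ChREBP. Its ratios were 1.82 and 3.10 in pair 1, 0.10 and 0.13 in pair 2, -0.74 and -0.80 in pair 3, 0.58 and 1.42 in pair 4, and 0.60 and 0.97 in pair 5. Scd1 was the only member called higher in pair 5 (0.79, adjusted p = 0.0236) and was lower in pair 3 (-0.77, adjusted p = 0.0268). On the same arrays it lay 1.14 and 1.81 above Adipoq in pair 5, against between 1.02 below and 0.70 above in the other pairs.

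Car3, carbonic anhydrase 3, is one of the most abundant proteins of rodent white fat and is also found in slow skeletal muscle. Its ratios were 2.19 and 2.54 in pair 1, -0.07 and 0.62 in pair 2, -0.72 and -0.56 in pair 3, 1.33 and 1.66 in pair 4, and -0.37 and -0.71 in pair 5. Car3 separated the pairs most sharply of the 7 members tested, with 8 of its 10 differences between 2 pairs called. It was higher in the double-null mice of pair 1 (5.16-fold, adjusted p = 1.55e-06) and pair 4 (2.82-fold, adjusted p = 8.08e-05) and lower in pair 3 (-0.64, adjusted p = 0.0309).

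The genotype comparison asks whether the vessel of mice without MyD88 carries more or less of these transcripts as a group. No member passed (0 of 8, against 0.814% of all genes tested, 0.628% higher and 0.186% lower). At an unadjusted p under 0.05 the count was also 0 of 8, against 9.44% of all genes, in the limma fit over pair values. The array-level fit with the mouse pair as a replicate block called 0 as well. Scd1 had the largest mean, 0.72 ± 1.19 (SD, n = 5 pairs), with a 95% interval of -0.16 to 1.60 and an adjusted p of 0.575. Adipoq averaged 0.65 ± 1.19 (SD, n = 5 pairs, 95% interval -0.23 to 1.53, adjusted p = 0.591). These intervals rest on limma's moderated standard errors, which borrow from the spread of all genes. Those of Scd1 and Adipoq leave room for means from slightly below 0 to a ratio of about 3 in the double-null mice. Over the 8 members the lower limits lay between -0.72 for Cidec and -0.16 for Retn. The upper limits lay between 0.55 for Retn and 1.87 for Cidec. A p that misses the threshold does not show that the genotypes were alike.

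The means of the other members were 0.59 for Car3, 0.58 for Cidec (n = 4 pairs), 0.45 for Pparg, 0.34 for Lipe, 0.28 for Fabp4 and 0.20 for Retn. Their adjusted p-values lay between 0.641 and 0.734. All 8 means were above 0, against 1791 of 4299 genes, with a median of 0.51 against -0.04 over all genes. Pair 1 decides much of this: without it the median over members was 0.07, and Cidec, Fabp4 and Lipe had means of -0.029, -0.071 and -0.023. Dye orientation had no called effect on any member (0 of 8, against 4.84% of all genes).

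Differences among the mouse pairs were tested on the 10 arrays, against the difference between repeated hybridisations of a pair. All 7 members measured on every array passed, against 30.0% of 3202 genes. Car3 had a moderated F of 50.7 (adjusted p = 3.13e-06) and ranked 22nd of all genes, and Adipoq had 43.8 (adjusted p = 5.76e-06) and ranked 32nd. Lipe, Pparg, Scd1 and Fabp4 had F values of 34.4, 33.8, 30.8 and 23.4, with adjusted p-values up to 0.000107. Retn was the weakest, with an F of 4.96 (adjusted p = 0.0369), and ranked 859th. Its call was lost without pair 1 (adjusted p = 0.132), pair 2 (0.0741), pair 3 (0.0561) or pair 5 (0.0743). Cidec, tested without pair 3, had an F of 94.3 (adjusted p = 3.12e-06).

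The span from the highest to the lowest pair value was 3.23 for Scd1, 3.09 for Adipoq, 3.01 for Car3, 2.60 for Pparg, 2.31 for Lipe and 2.14 for Fabp4, each larger than in at least 96.7% of the 3196 genes with 5 pair values. The median gene spanned 0.75, and 5% of genes spanned over 1.88. Retn spanned 0.78, larger than in 53.0% of genes, so resistin varied about as much as a typical transcript of the arch.

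**Figure D2:**
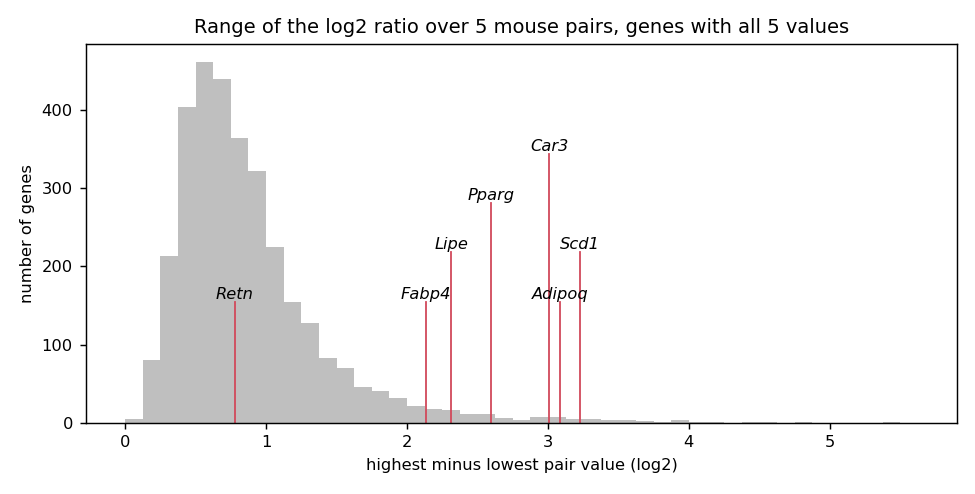
Number of genes (y axis) by the highest minus the lowest of the 5 pair values, in log2 units (x axis), for the 3196 genes with all 5. Red lines mark the 7 members with all 5 values and their heights only keep the names apart; Retn at 0.78 lies near the median of 0.75, and the other 6 lie beyond 2.

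Set against 0, the ratio of pair 1 was higher in the double-null mouse for 7 of 7 members and lower for 0, against 12.9% higher and 15.6% lower among all genes. In pair 2 only Retn was called (higher, 1 of 7, against 6.90% higher and 10.1% lower among all genes). In pair 3, Pparg, Scd1 and Car3 were lower and none was higher, against 4.18% lower and 3.09% higher. Pair 4 had 6 of 7 members higher, all but Retn, and none lower, against 6.09% higher and 4.00% lower. Pair 5 had Scd1 higher and Adipoq lower, against 4.43% and 4.65% of all genes.

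Contrasts between 2 pairs located these differences, and 11.5% of all such contrasts over genes were called. Pair 1 exceeded pairs 2 and 5 for 6 of the 7 members, pair 3 for all 7 and pair 4 for 5. Adipoq, for example, was 1.22 ± 0.25 (SE) higher in pair 1 than in pair 4 (adjusted p = 0.00617), whereas Lipe, at 0.71 ± 0.25, did not pass (adjusted p = 0.0849). Retn passed in 1 contrast, pair 1 over pair 3 (0.78 ± 0.24, adjusted p = 0.0469). The contrast of pairs 3 and 5 did not pass for Adipoq, Fabp4, Pparg, Lipe, Retn and Car3, but Scd1 was 1.56 ± 0.30 lower in pair 3 than in pair 5 (adjusted p = 0.00399).

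Other genes of adipocyte function were read from 6 lists by role, 73 genes in all without the members. Of 42 tested for genotype with limma, 0 passed, 1 (Fabp3) had an unadjusted p under 0.05, against 9.44% of all genes, and 29 had a mean above 0, against 1791 of all 4299 genes. Of 35 measured on every array, 28 differed among pairs, against 30.0% of all genes. The lists did not move as one, and the plot of list medians shows where they parted.

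**Figure D3:**
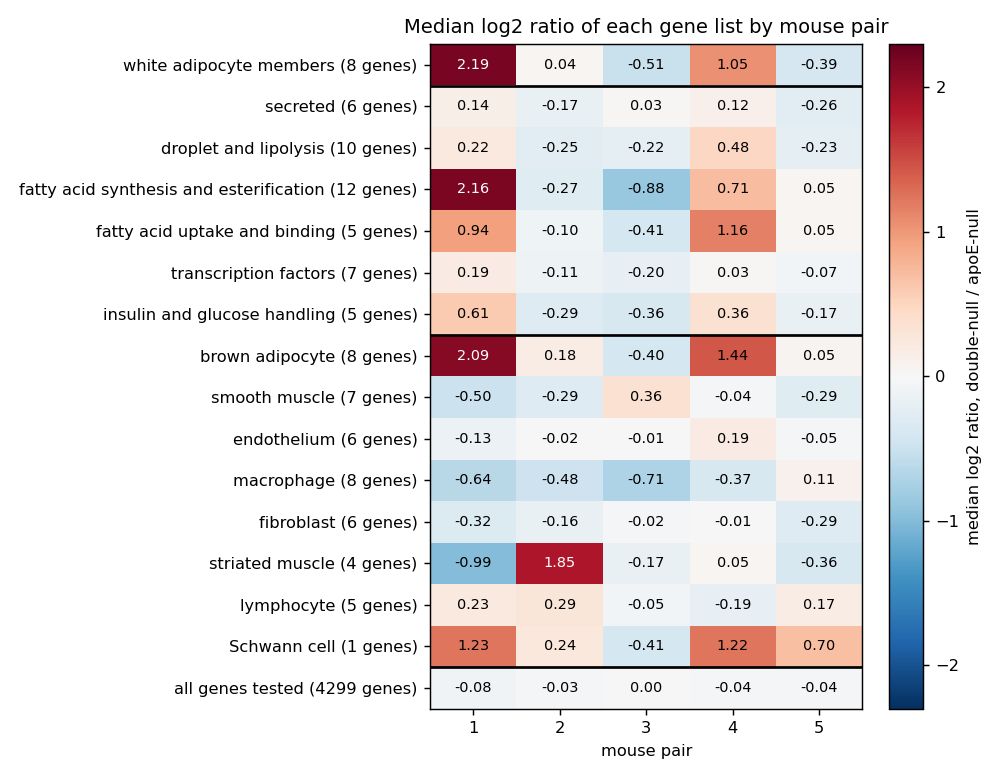
Median log2 ratio, double-null over apoE-null, of each gene list (rows) in each mouse pair (columns), with the number of genes that have a pair value. The members, the fatty acid synthesis list and the brown adipocyte list have medians above 2 in pair 1, against -0.08 over all genes, and the secreted and transcription factor lists stay within 0.26 of 0.

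The fatty acid synthesis and esterification list had 9 of 10 genes that differed among pairs, with medians of 2.16, -0.27, -0.88, 0.71 and 0.05 in pairs 1 to 5. Fasn, fatty acid synthase, had pair values of 3.36, -0.39, -2.13, 0.25 and 2.23, the widest span of all 3196 genes. Its partner arrays read 2.17 and 2.29 in pair 5 and -2.27 and -1.98 in pair 3, so the double-null mouse had more Fasn transcript than its partner in pair 5 (adjusted p = 5.33e-06) and less in pair 3 (adjusted p = 7.88e-06). Acly, which makes cytosolic acetyl-CoA for the same pathway, had 2.29, 0.03, -1.78, 0.09 and 1.96. Thrsp, a lipogenic protein named after its response to thyroid hormone, had 2.40, -0.61, -1.53, 0.67 and 1.49, and the desaturase Scd2 had 1.11, 0.29, -0.63, 0.12 and 0.90. These 4 genes were higher in pair 5, as Scd1 was, in a pair where Adipoq was lower.

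Dgat2 and Pck1, of the same list, were not higher in pair 5. Dgat2, which completes triglyceride synthesis, had 3.02, -0.63, -0.84, 1.70 and -0.45. Pck1, which supplies glycerol 3-phosphate in fat and is induced by fasting, had 1.82, -0.83, 0.74, 1.14 and -1.50: it was higher in pair 3 (adjusted p = 0.0127) and lower in pair 5 (adjusted p = 6.11e-05), opposite to Fasn in both. The factors that act on lipogenic genes are in the transcription factor list. Mlxipl, encoding ChREBP, had 2.04, -1.12, -0.19 and 0.74 in pairs 1, 3, 4 and 5. Srebf1, encoding SREBP-1, had 0.87, 0.23, -1.06, -0.44 and 0.17. Thrsp, Scd2, Pck1 and Mlxipl were chosen after their values were seen.

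**Figure D4:**
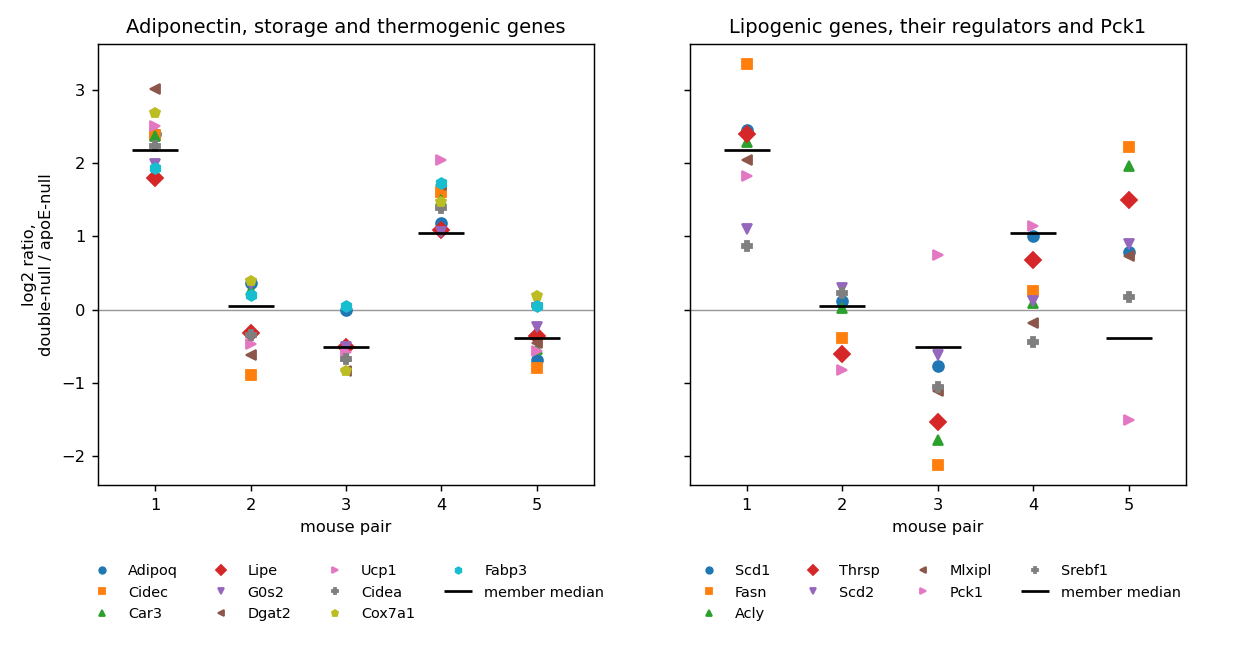
Pair values (y axis, log2 ratio, double-null over apoE-null) in mouse pairs 1 to 5 (x axis) for adiponectin, storage and thermogenic genes (left) and for lipogenic genes, Srebf1, Mlxipl and Pck1 (right); black bars are the member medians, and the genes plotted were chosen after their values were seen. In pair 5 the genes on the left lie between -0.81 for Cidec and 0.19 for Cox7a1, and Fasn, Acly, Thrsp, Scd1, Scd2 and Mlxipl lie between 0.74 and 2.23.

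Of the droplet and lipolysis list, 6 of 10 genes differed among pairs. G0s2, an inhibitor of the main triglyceride lipase, followed the members with 2.00, 0.35, -0.51, 1.06 and -0.24. Cidea, a droplet protein of brown and beige fat, had 2.23, -0.35, -0.67, 1.39 and 0.06, and Pnpla2, the lipase that G0s2 inhibits, had 1.28, -0.43, -0.19, 0.61 and -0.40. The droplet coat proteins Plin2 and Plin4, chosen after their values were seen, parted from the members in pair 1. Plin2 had -0.36, -0.41, -0.48, 0.56 and 0.00 and was called higher in pair 4 (adjusted p = 0.0329), and Plin4 had -0.52, -0.36, 0.30, 0.42 and -0.35.

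All 5 tested genes of fatty acid uptake and binding differed among pairs. Fabp3, a fatty acid carrier of heart and brown fat, had 1.94, 0.20, 0.05, 1.73 and 0.05, and Gpihbp1, which anchors lipoprotein lipase on capillary endothelium, had 1.57, 0.35, -0.16, 1.22 and -0.83. Lpl, the lipase itself, had -0.39, -1.23, -0.41, 0.40 and -0.47 and was thus not high in pair 1. Plaque macrophages also make Lpl and Fabp5, and which cells gave either transcript was not tested. Fabp5, chosen after its values were seen, had -0.95, -0.18, -0.50, -0.05 and 0.65. It was lowest in pair 1, whereas Lpl was lowest in pair 2.

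Among transcription factors, 3 of 4 tested genes, Klf15, Srebf1 and Cebpb, differed among pairs. Klf15, which responds to fasting and glucocorticoids, had -0.58, -0.30, 1.22, 1.03 and -0.57, and Cebpb, an early factor of adipocyte differentiation, had 0.18, -0.03, 0.00, 1.04 and -1.05. In the insulin and glucose list 4 of 4 differed, among them the citrate synthase gene Cs with 1.83, -0.51, -0.40, 1.11 and -0.25. The glycolytic genes Pfkfb3, with 0.20, 0.41, -0.36, 0.32 and -1.02, and Aldoa, with 0.72, -0.24, -0.43, 0.06 and 0.05, also differed. Of the other secreted proteins 2 of 3 were called, Lpl and Rarres2. Rarres2, encoding chemerin, had 0.22, 0.63, 0.42, -0.50 and -0.07, and Rbp4, the retinol carrier, had 0.51, 0.01, 0.45, -0.16 and -0.18 and did not pass.

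Markers of other cell types were read in the same pairs. The median of the brown adipocyte genes, of which Cidea and Fabp3 are also in the role lists, was highest in the same 2 pairs as the members. Of these genes, 7 of 7 tested differed among pairs, with medians of 2.09, 0.18, -0.40, 1.44 and 0.05. Elovl3 and Dio2, chosen after their values were seen, were exceptions. Elovl3 had 0.36, -0.25 and 0.10 in pairs 1, 4 and 5. Dio2 had 0.39 in pair 1 and 0.48 in pair 4 and passed in neither (adjusted p = 0.149 and 0.0706 against 0 in the array-level limma fit). Ucp1, the uncoupling protein that defines thermogenic fat, had 2.51, -0.46, -0.58, 2.04 and -0.56, and the respiratory chain subunit Cox7a1 had 2.68, 0.39, -0.83, 1.48 and 0.19. Ucp1 was higher in the double-null mouse of pair 1 (adjusted p = 8.87e-07) and pair 4 (adjusted p = 4.75e-06) in the same fit. The member ratios therefore do not tell white from brown fat cells. Which of these cells gave the members' differences was not tested. The only measured Schwann cell marker, S100b, which fat cells also express, had 1.23, 0.24, -0.41, 1.22 and 0.70.

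Vessel wall and blood cell markers varied within and between lists. Smooth muscle medians were -0.50, -0.29, 0.36, -0.04 and -0.29, lowest in pair 1 and highest in pair 3, where the members were highest and lowest. In pair 5, however, the smooth muscle median and the member median were both below 0. The contractile gene Acta2 had -0.69, -0.20, 0.69, 0.12 and -0.46. Cnn1 had -0.61, -0.22, 0.67, -0.15 and -0.69 and was thus lowest in pair 5. Of 5 smooth muscle genes tested, 3 differed among pairs. Tagln, chosen after its values were seen, did not (adjusted p = 0.626 in the array-level limma fit). Macrophage medians were -0.64, -0.48, -0.71, -0.37 and 0.11, with the lysosomal genes Ctss at -1.37 and Cd68 at -1.05 in pair 1, against 0.46 and 0.59 in pair 5. Csf1r of the same list, chosen after its values were seen, took another course, with -0.65, 0.80, -0.30, -0.37 and -0.32. It was called higher in pair 2 (adjusted p = 0.00726 in the array-level limma fit).

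Endothelial medians lay between -0.13 and 0.19, but single genes split. Kdr, the main VEGF receptor, had 0.89, -0.05, -0.01, 0.63 and -0.26 and was higher in the members' 2 high pairs (adjusted p = 0.00296 in pair 1 and 0.0239 in pair 4), whereas the sialomucin gene Emcn read -1.05 in pair 1 (adjusted p = 0.000871). Fibroblast medians lay between -0.32 and -0.01, with the collagen gene Col1a1 at -0.77 and the proteoglycan gene Lum at -1.16 in pair 1. Lymphocyte medians lay between -0.19 and 0.29. There Ighm, the immunoglobulin mu chain, had 0.81, -0.36, -1.12, -0.55 and -0.10, higher in pair 1 and lower in pairs 3 and 4, and Cd4 stayed between -0.14 and 0.29. The striated muscle median was 1.85 in pair 2, where the member median was 0.04, and between -0.99 and 0.05 in the other pairs. In pair 2 the heart myosin gene Myh6 read 1.85 and the heart troponin gene Tnni3, chosen after its values were seen, 1.88, whereas the troponin gene Tnnt2 read -0.14. In the genotype fit with limma 0 of 42 cell type markers passed, and 9 had an unadjusted p under 0.05, 4 of them among 8 macrophage genes, against 9.44% of all genes. As ratios carry no level, how much RNA each cell type gave is unknown, and the part of these cell types in the members' differences was not tested.

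The genes whose 5 pair values lay nearest to the member medians were found by root mean square difference among 3189 genes that are not members. The nearest were G0s2 and Ech1, at 0.18 each, then Mcrip2 and Amy2 at 0.19, Hadhb at 0.20, Dnajc15 at 0.21, Cd1d1 at 0.23, Uqcrfs1 and Cpt2 at 0.25 and Selenot at 0.27, against a median of 1.21 over all genes. Ech1, Hadhb and Cpt2 encode enzymes of fatty acid oxidation in mitochondria, and Uqcrfs1 encodes the iron-sulphur subunit of respiratory complex III. Cd1d1 encodes a molecule that presents lipids to natural killer T cells, and Amy2 a pancreatic amylase of a multigene family, whose probe may not separate its copies. Of the 10, G0s2 alone was in the lists of adipocyte genes by role. Among the members themselves, Lipe lay 0.24 from the medians, Car3 0.25, Pparg 0.29, Fabp4 and Adipoq 0.32, Scd1 0.56 and Retn 0.88, each being part of the medians it is set against.

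**Figure D5:**
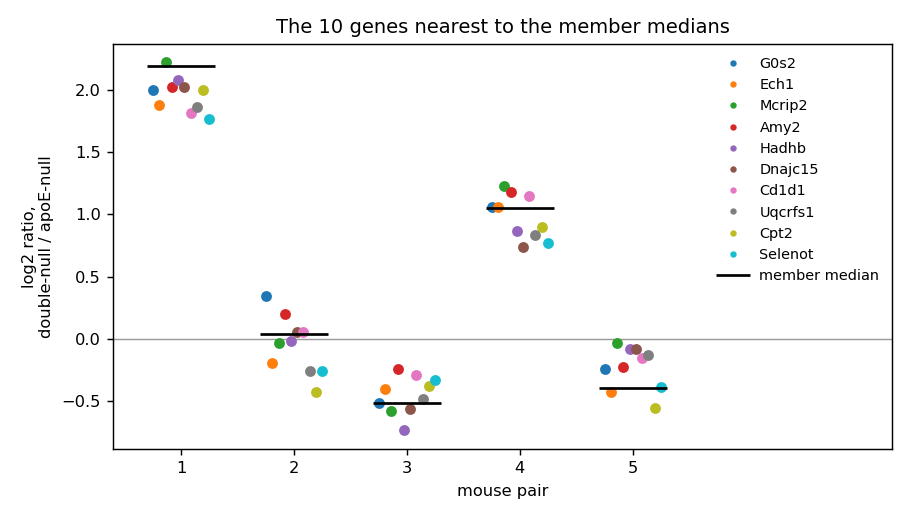
Pair values (y axis, log2 ratio, double-null over apoE-null) of the 10 nearest genes in mouse pairs 1 to 5 (x axis), with the member medians as black bars; points are set side by side within a pair. The genes were chosen for lying near the bars, so their course over the pairs follows from that choice. They lie between 1.77 and 2.22 in pair 1 and below 0 in pairs 3 and 5.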

How the data were processed

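The values analysed are log2 ratios of the 2 channels as deposited by the authors, apoE-null over double-null per the titles, and their sign was turned here. Per the labels, T7-amplified RNA was labelled chemically, and slides were scanned on a GenePix 4000B with GenePix Pro 3.0 and analysed in GeneSpring. The normalization and the reason for blank cells (49.1% to 67.0% of an array) are not stated in the labels or the file. Array medians were between -0.09 and 0.01 after the turn, and the deposited scale was kept. The lowest value, -6.64, equals the log2 of 0.01 and occurs 10 times.

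Probes of a gene were averaged. A pair value is the mean of both arrays of a mouse pair, which hold the same RNA, and the pair is the replicate; a probe blank on an array gave no pair value for that pair, but entered the array-level values. The genotype fit (limma 3.58.1, R 4.3.3, eBayes, two-sided) took genes with at least 3 pair values. Differences among pairs, between 2 pairs and of a pair against 0 came from 1 array-level limma fit with a term per pair and for dye, on 3202 genes with values on all 10 arrays and 4 residual degrees of freedom. P-values were adjusted by Benjamini-Hochberg over all genes, and over all genes and contrasts together for the last 2 (threshold 0.05). The fits were tested on simulated data.

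The members, lists and tests were chosen with earlier results of these data known. The naming rule takes all members, Myd88, the 3 genes of each role list with the smallest p among pairs, the 2 markers of each cell type with most values and the widest range, and the 10 genes nearest to the member medians; others are said to be chosen after their values were seen. Gene names are those of the platform's annotation, brought up to date through Entrez identifiers and RefSeq. Same-numbered samples are the dye-swapped arrays of the same mice. Alternatives were leaving out each pair, single orientations, other filters and thresholds, centring, robust eBayes, probe-level fits, the male pairs alone, no dye term and the replicate block.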

Additional observations from a re-analysis of the deposited data

How the results depend on the processing

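No member passed for genotype under any alternative run, and the member medians of the pairs moved by less than the spread between members under the settings tried for them. That of pair 2 stayed near 0 (0.013 from the channel 1 arrays alone, -0.021 as a mean over members, against 0.043), and that of pair 5 was -0.25 as a mean, against -0.39. The count of all genes called for genotype was less stable: it was 35, between 0 and 17 when a pair was left out, 63 in the array-level fit with the mouse pair as replicate block (correlation of partner arrays 0.513), 98 from the arrays with double-null RNA in channel 2 alone, 7 when a single array was enough for a pair value, and 62 at an adjusted p under 0.10. Genes called as different among pairs numbered 961, against 467 without the dye term, 458 to 971 when a pair was left out, and 500 at an adjusted p under 0.01. The cause of these shifts was not tested, except that another threshold on the same fit alone sets the counts at an adjusted p under 0.10 or 0.01. Leaving out pair 1 turned the genotype means of Cidec, Fabp4 and Lipe below 0; over the pairs left out these ran between -0.029 and 1.07 for Cidec, -0.071 and 0.46 for Fabp4, and -0.023 and 0.56 for Lipe. Across the pairs left out, the median of member means lay between 0.07 and 0.65, and it was 0.12 in the male pairs alone, where Cidec had too few values. Of the 7 members, only Retn lost its call among pairs: its adjusted p was 0.101 without the dye term and 0.132, 0.0741, 0.0561 and 0.0743 without pairs 1, 2, 3 and 5, and its adjusted p of 0.0369 misses the threshold of 0.01. Blank cells and the unknown intensities limit what can be said of weak probes. The second Fabp4 probe had a mean of 0.03 over pairs 2, 4 and 5, and the first 0.47 over pairs 1 to 4. These means cover different pairs, and only the first includes pair 1, so they are not a comparison of the probes.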
